A study of Mus musculus with 12 samples.

Results

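Complement is a set of blood and tissue proteins that tag and lyse cells and call in immune cells, and 9 of its genes were followed here after knockdown of a sialyltransferase in a mouse ovarian cancer line. The 9 genes were taken by name from the tables of all 12 libraries: the proteases C1ra, C1s1 and C2, the components C4b and C3, factor B (Cfb), properdin (Cfp), the C1 inhibitor (Serping1) and the C3a receptor (C3ar1). All 9 were found among the 55878 genes listed for tumors and the 56061 listed for cultured cells.

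HM1 is a mouse ovarian cancer cell line. RNA sequencing covered 4 groups of 3 libraries: tumors of HM1 cells with a short hairpin RNA against ST3GAL3 (shST3GAL3 tumors), tumors of HM1 cells with a control hairpin (shControl tumors), and cultured HM1 cells with the same hairpins (shST3GAL3 cells and shControl cells). Every library is labelled wild type, so the hairpin is the only labelled difference within a tissue. The host strain, the tumor site, the age of the animals, the number of hairpins and whether a line is a clone are not given in the sources used here. Nor is it known whether the 3 libraries of a group are separate animals or cultures. The spread behind every p-value is therefore the spread of these libraries, and may be technical. Levels are given as TPM, which corrects for transcript length and so lets levels of different genes be compared, but which holds no record of sequencing depth.

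As background, the classical pathway starts when the C1 complex, built of C1q with the proteases C1r and C1s, binds its target and cuts C4 and C2, and the alternative pathway amplifies deposited C3 through factor B, factor D and properdin. Both pathways meet at C3, whose fragments coat surfaces and, as C3a, act on the receptor C3aR of myeloid cells. The liver makes most circulating complement, but macrophages, fibroblasts and tumor cells also make components locally, and interferon-gamma is known to raise transcripts of several of them.

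The targeted gene, St3gal3 (ENSMUSG00000028538), stood at 7.28, 5.87 and 5.76 TPM in shST3GAL3 tumors, against 14, 15.4 and 15.4 TPM in shControl tumors. In culture it stood at 1.52, 1.25 and 1.83 TPM in shST3GAL3 cells, against 9.59, 12.5 and 12.9 TPM in shControl cells. It fell in both tissues, by limma on log2(TPM + 1) with Benjamini-Hochberg adjustment over all genes (log2 change -1.13, adjusted p = 0.00954 in tumors; log2 change -2.32, adjusted p = 0.00689 in culture). The tumor call was lost with a replicate block in the fit (limma adjusted p = 0.0768). Without shST3GAL3 tumors 1 and 3 together, which leaves 1 shST3GAL3 tumor, the log2 change was -1.21. The keratins Krt8, Krt18 and Krt19 were at 921 to 2141 TPM in cultured cells, while the ovarian and epithelial markers Epcam, Pax8, Muc16, Wt1, Cldn4 and Krt7 stayed at or below 0.440 TPM there. Msln, the mesothelin gene and another marker of that list, was at 15.4 to 18.5 TPM there. The macrophage gene Csf1r was at or below 0.050 TPM in culture, against 28.1 to 42.3 TPM in the 6 tumors. Cd68, also a macrophage marker, was at 12.8 to 17.8 TPM in culture, against 75.2 to 91.8 TPM in the tumors. The 14 monocyte and macrophage markers together summed to 43.2 to 50.6 TPM in culture. In bulk tumor tissue, fewer cells of a type and less RNA per cell cannot be told apart.

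Of the 9 complement genes, 5 were at higher levels in every shST3GAL3 tumor than in every shControl tumor, namely Cfb, C1ra, C1s1, C2 and C3ar1, but none passed the adjusted threshold. By limma, 0 of 9 genes had an adjusted p under 0.05, beside 225 of 14915 genes tested (1.51%). At an unadjusted p under 0.05 the count was 5 of 9, all higher, beside 18.7% of all genes tested. Separation of the groups with every knockdown library higher occurred in 9.81% of all genes tested and in 5 of the 9. The fitted log2 change was above 0 for 8 of 9 genes, with a median of 0.77, beside 39.6% and a median of -0.05 over all genes tested. The 9 genes were chosen with earlier results of these data known, so these and later counts beside all genes are descriptive. In cultured cells the same genes gave no call, and 4 of the 9 were not tested there because their mean was below 1 TPM in both groups.

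**Figure D1:**
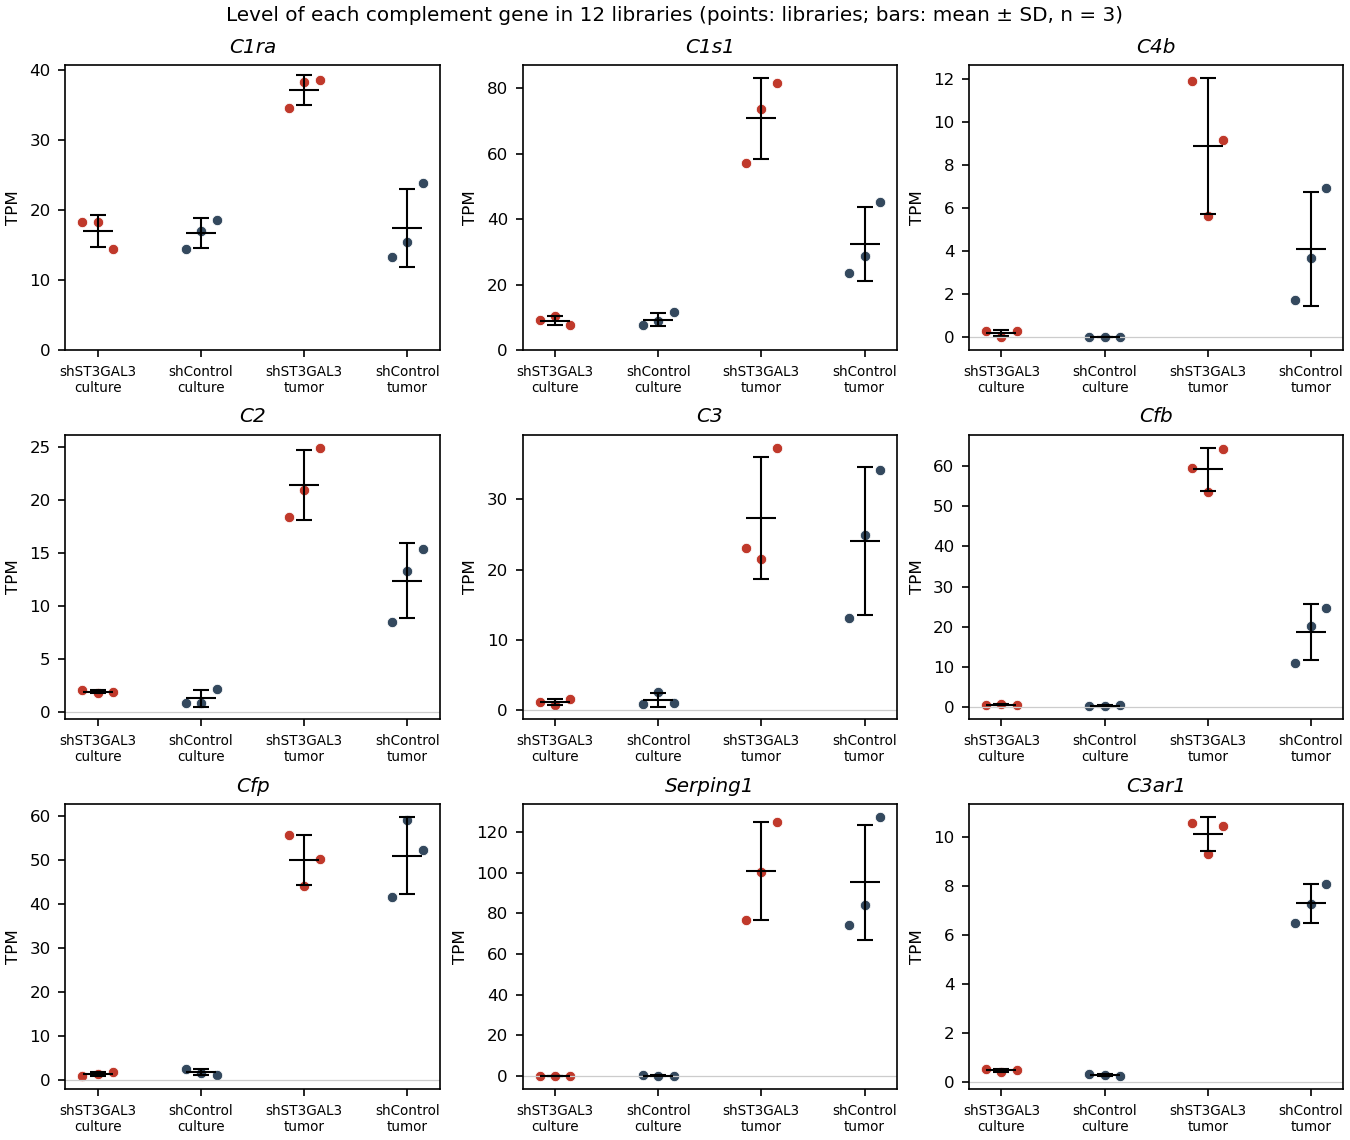
TPM of each complement gene in each of the 12 libraries, with shST3GAL3 in red and shControl in dark grey, in culture and in tumors; black bars are the mean and SD of 3 libraries, and every panel has its own linear axis. Cfb, C1ra, C1s1, C2 and C3ar1 separate the tumor groups without overlap, while Cfp and Serping1 do not.

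C1ra (ENSMUSG00000055172) encodes C1r, the protease that activates C1s in the C1 complex. It was at 34.7, 38.3 and 38.6 TPM in shST3GAL3 tumors, against 13.2, 15.4 and 23.8 TPM in shControl tumors. The shST3GAL3 tumors lay close together and above all shControl tumors, with means of 37.2 ± 2.17 TPM and 17.5 ± 5.60 TPM (SD, n = 3 each). The ratio of means was 2.13, and the log2 change of 1.09 (SE 0.199) had a limma adjusted p of 0.0583, just outside the threshold. In culture C1ra was at 18.4, 18.4 and 14.4 TPM in shST3GAL3 cells, against 14.4, 17.1 and 18.6 TPM in shControl cells. These ranges cover each other, and the log2 change was 0.03 with a 95% interval from -0.30 to 0.36.

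C1s1 (ENSMUSG00000038521) encodes C1s, the protease that cuts C4 and C2. Its levels were 57.2, 73.7 and 81.5 TPM in shST3GAL3 tumors, against 23.4, 28.8 and 45.2 TPM in shControl tumors. Again the groups did not overlap, with a ratio of means of 2.18 and a log2 change of 1.14 (SE 0.262; adjusted p = 0.108 by limma). In culture it was at 9.03, 10.3 and 7.61 TPM in shST3GAL3 cells, against 7.48, 8.85 and 11.6 TPM in shControl cells, with overlap and a log2 change of -0.03 (95% interval -0.45 to 0.39).

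C1ra and C1s1 are neighbours on chromosome 6 in the order C1rl, C1ra, C1s1, Gm18840, C1rb, C1s2 (RefSeq, assembly GRCm38.p6), and the pattern of C1s1 over the 6 tumors was the most like that of C1ra among 10671 genes. The 250 bases before the start of each are shown because each gene is among the 2 most like the other. They are RefSeq sequences of GRCm38.p6, an older build than the GRCm39 named in the submitters' processing notes, at chr6:124512371-124512620 on the plus strand for C1ra and chr6:124542360-124542609 on the minus strand for C1s1.
C1ra: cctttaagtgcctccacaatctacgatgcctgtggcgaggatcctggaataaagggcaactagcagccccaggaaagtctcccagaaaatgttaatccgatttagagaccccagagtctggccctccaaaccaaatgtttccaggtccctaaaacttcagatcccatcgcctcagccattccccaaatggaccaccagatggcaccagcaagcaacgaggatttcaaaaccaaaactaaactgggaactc
C1s1: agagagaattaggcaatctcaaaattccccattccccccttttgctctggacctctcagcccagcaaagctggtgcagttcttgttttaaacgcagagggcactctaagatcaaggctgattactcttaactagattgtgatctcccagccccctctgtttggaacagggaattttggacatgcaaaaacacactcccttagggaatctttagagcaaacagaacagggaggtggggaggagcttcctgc
Neither window holds the interferon-gamma-activated site TTCNNNGAA, the interferon-stimulated response element or the NF-kappaB consensus on either strand. Among 32851 RefSeq promoters, 7.02%, 2.98% and 7.25% hold these motifs in the same window. Promoter entries matched 5 of the 9 genes (C1ra, C1s1, C3, Cfp and C3ar1; not C2, C4b, Cfb and Serping1), and none of the 3 motifs was present in the 250 bases before any of these starts. The scan was then extended to the 50 bases after the start, a choice made after seeing the first result, where C1ra holds a TTCNNNGAA match at base 33 after its start; 8.30% of all promoters hold this motif in the longer window. A match, or its absence, describes these letters in this window only.

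C1ra has a near-identical copy, C1rb, and the block they share is shown with the mismatches in capitals, since the copies resemble each other upstream of the transcript as well as within it. The stretches lie on the plus strand at chr6:124512522-124512620 for C1ra, ending at its start, and at chr6:124570180-124570278 for C1rb, further upstream of its own start.
C1ra: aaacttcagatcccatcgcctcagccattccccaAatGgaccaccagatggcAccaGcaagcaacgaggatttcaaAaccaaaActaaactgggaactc
C1rb: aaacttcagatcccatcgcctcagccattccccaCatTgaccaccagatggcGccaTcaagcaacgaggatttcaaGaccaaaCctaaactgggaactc
These 99 bases differ at 6 positions, and the whole aligned block of 150 bases was 92.7% identical. The motif match occurs in both copies. It is shown with TTCNNNGAA in capitals inside the windows chr6:124512642-124512670 for C1ra and chr6:124570300-124570329 for C1rb.
C1ra: caaatgcttcaTTCCCTGAAacattcctc
C1rb: caaatgcttcaTTCCCTGAAacatttctcc
In GENCODE vM21 transcripts, 48.0% of the 50-base windows of C1ra also occur in C1rb, and 24.3% of those of C1s1 occur in C1s2. Levels within these pairs are therefore uncertain. C1rb was low, at 1.11, 1.52 and 0.700 TPM in shST3GAL3 tumors, against 0.300, 0.690 and 0.610 TPM in shControl tumors, with the closest libraries of the groups barely apart (limma adjusted p = 0.325).

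C4b (ENSMUSG00000073418) encodes C4, the component that C1s cuts and that forms part of the classical C3 convertase. It was at 11.9, 5.62 and 9.16 TPM in shST3GAL3 tumors, against 1.71, 3.66 and 6.93 TPM in shControl tumors. The lowest shST3GAL3 tumor lay below the highest shControl tumor, and the log2 change of 1.04 (SE 0.450) had a 95% interval from -0.08 to 2.16 and a limma adjusted p of 0.294. Its copy C4a shares 35.2% of the 50-base windows of C4b and was at 1.55, 1.27 and 2.48 TPM in shST3GAL3 tumors, against 2.11, 1.91 and 3.27 TPM in shControl tumors. C4b stood at 3.69 to 7.68 times C4a in shST3GAL3 tumors, against 0.810 to 2.12 times in shControl tumors. Because reads of the copies can be exchanged, this ratio, which was chosen after seeing the values, is given as a description. In culture C4b was at 0.270, 0.010 and 0.280 TPM in shST3GAL3 cells, and was listed at 0 in shControl cells 1 and 2 and at 0.010 TPM in shControl cells 3.

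C2 (ENSMUSG00000024371) encodes the protease subunit of the classical C3 convertase. In shST3GAL3 tumors it was at 18.4, 21.0 and 24.98 TPM, against 8.49, 13.3 and 15.4 TPM in shControl tumors. The groups did not overlap, although the gap between them was narrow, and the log2 change was 0.77 (SE 0.216, limma adjusted p = 0.139). In culture it was at 2.12, 1.81 and 1.88 TPM in shST3GAL3 cells, against 0.890, 0.840 and 2.20 TPM in shControl cells. The third shControl culture exceeded all shST3GAL3 cultures, and the log2 change of 0.39 had a 95% interval from -0.22 to 1.01.

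C3 (ENSMUSG00000024164) encodes the component on which all pathways meet. Its levels were 23.1, 21.5 and 37.3 TPM in shST3GAL3 tumors, against 13.1, 24.9 and 34.2 TPM in shControl tumors. The groups overlapped, although the lowest shControl tumor lay below every shST3GAL3 tumor. The log2 change of 0.23 had a 95% interval from -0.78 to 1.24 (limma adjusted p = 0.777). An increase as large as that of Cfb lies outside this interval. In culture C3 was at 1.11, 0.760 and 1.56 TPM in shST3GAL3 cells, against 0.790, 2.59 and 1.04 TPM in shControl cells, with overlap.

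Cfb (ENSMUSG00000090231) encodes factor B, the protease subunit of the alternative C3 convertase, and had the largest fitted difference of the 9 genes. It was at 59.6, 53.5 and 64.3 TPM in shST3GAL3 tumors, against 10.98, 20.2 and 24.6 TPM in shControl tumors. The lowest shST3GAL3 tumor was well above the highest shControl tumor, with means of 59.1 ± 5.41 TPM and 18.6 ± 6.94 TPM (SD, n = 3 each) and a ratio of means of 3.18. The log2 change of 1.68 (SE 0.285, 95% interval 0.98 to 2.39) had a limma adjusted p of 0.0603. In culture the gene stayed below 1 TPM, at 0.640, 0.760 and 0.550 TPM in shST3GAL3 cells, against 0.340, 0.210 and 0.670 TPM in shControl cells, and was not tested.

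Cfb and C2 are adjacent paralogs on chromosome 17 (RefSeq, assembly GRCm38.p6), and in GENCODE vM21 they share no 50-base window, so their reads are separable at that length. Within each tumor, Cfb stood at 3.23, 2.55 and 2.57 times C2 in shST3GAL3 tumors, against 1.29, 1.52 and 1.60 times in shControl tumors. In culture Cfb was below C2 in every library, at 0.302, 0.420 and 0.293 times in shST3GAL3 cells, against 0.382, 0.250 and 0.305 times in shControl cells. The ratio of C1s1 to C1ra, by contrast, overlapped between the tumor groups, at 1.65, 1.93 and 2.11 in shST3GAL3 tumors, against 1.77, 1.87 and 1.90 in shControl tumors. C1s1 exceeded C1ra in all 6 tumors and was lower than C1ra in all 6 cultures. These ratios were chosen after seeing the values and carry no test.

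**Figure D2:**
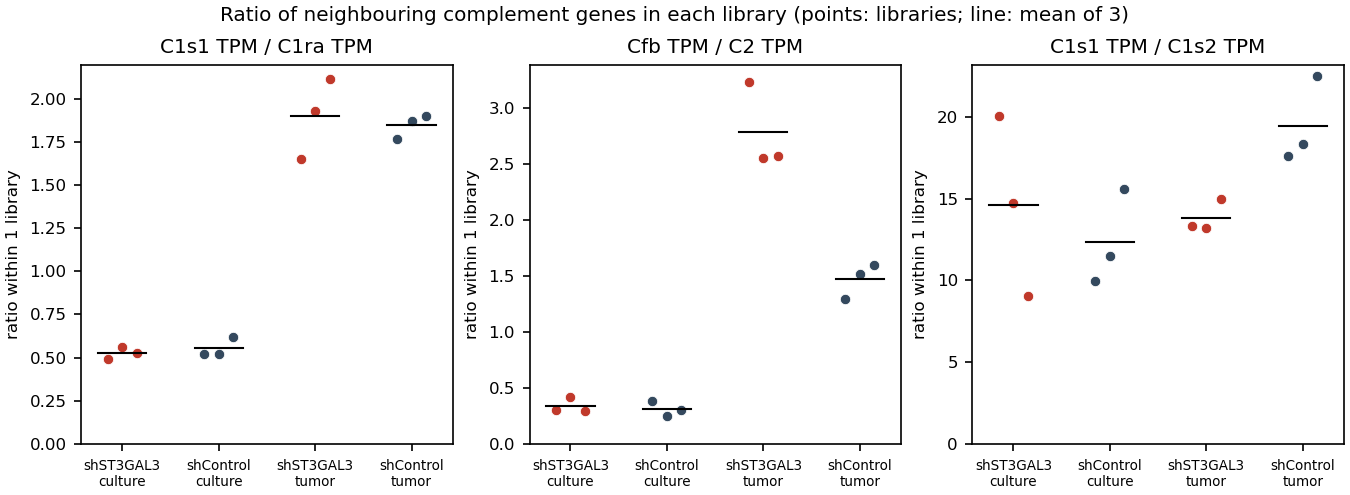
Ratio of the TPM of C1s1 to C1ra, of Cfb to C2 and of C1s1 to C1s2 within each library, for shST3GAL3 (red) and shControl (dark grey) in culture and tumors; lines are means of 3 libraries and the axes start at 0. The ratio of Cfb to C2 is 2.55 to 3.23 in shST3GAL3 tumors and 1.29 to 1.60 in shControl tumors, while C1s1 to C1ra overlaps.

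Cfp (ENSMUSG00000001128) encodes properdin, which stabilizes the alternative convertase. It was at 55.5, 44.0 and 50.2 TPM in shST3GAL3 tumors, against 41.6, 59.0 and 52.1 TPM in shControl tumors. The groups overlapped fully, and the log2 change of -0.02 had a narrow 95% interval, from -0.35 to 0.31 (limma adjusted p = 0.950). Serping1 (ENSMUSG00000023224) encodes the C1 inhibitor, which inactivates C1r and C1s. It was the most abundant of the 9 in tumors, at 76.8, 100.2 and 124.8 TPM in shST3GAL3 tumors, against 74.5, 84.0 and 127.2 TPM in shControl tumors. Here too the groups overlapped, with a log2 change of 0.09 (95% interval -0.56 to 0.74, limma adjusted p = 0.871).

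C3ar1 (ENSMUSG00000040552) encodes the receptor for C3a. It was at 10.6, 9.32 and 10.5 TPM in shST3GAL3 tumors, against 6.52, 7.28 and 8.11 TPM in shControl tumors. The groups did not overlap, the ratio of means was 1.39, and the log2 change was 0.42 (SE 0.108, limma adjusted p = 0.110). In culture C3ar1 was at 0.550, 0.420 and 0.490 TPM in shST3GAL3 cells, against 0.350, 0.320 and 0.260 TPM in shControl cells. These groups also did not overlap, as in 5.25% of genes tested in culture, but the levels were below 1 TPM and were not tested. Cfp in culture was at 0.960, 1.33 and 1.78 TPM in shST3GAL3 cells, against 2.64, 1.55 and 1.23 TPM in shControl cells, and Serping1 was at or below 0.340 TPM in all 6 cultures.

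Among cultured cells, 5 of the 9 genes reached the level for testing (C1ra, C1s1, C2, C3 and Cfp), and 0 passed by limma, beside 4 of 13492 genes tested (0.0296%). At an unadjusted p under 0.05 the count was also 0, beside 3.42% of all genes tested. Every limma adjusted p of these 5 genes was 1.00 after rounding. The intervals of C2, C3 and Cfp were wide, so a difference of the size seen for C2 in tumors lies inside the interval of C2 in culture. For C1ra and C1s1 the upper bounds in culture, 0.36 and 0.39, lay below the tumor estimates.

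The effect of the knockdown in tumors was then compared with its effect in culture, in a fit over all 12 libraries. Of the difference, tumor effect minus culture effect, 0 of 9 genes passed by limma, beside 116 of 15381 genes tested (0.754%). Of the 9, C4b, Cfb, Serping1 and C3ar1 were under 1 TPM in culture and entered this fit through the tumors alone. Their differences are therefore not given here, and the count of 0 of 9 does not tell whether their effects differ between tissues. For the 5 genes tested in both tissues the difference was above 0, beside 36.3% of the 12091 genes tested in both, and 2 of 5 had an unadjusted p under 0.05, beside 9.39%. These were C1ra (difference 1.06 on the log2 scale, SE 0.257, limma adjusted p = 0.104) and C1s1 (1.17, SE 0.326, limma adjusted p = 0.169). Both passed with median-of-ratios scaling (limma adjusted p = 0.0255 for C1ra and 0.0489 for C1s1) and without shControl tumor 3 (0.0126 and 0.0379), and C1ra also with quantile normalization (0.0318). Under most of the 20 alternatives the difference did not pass, in 17 for C1ra and in 18 for C1s1. The differences of C2, C3 and Cfp were 0.38, 0.38 and 0.22.

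**Figure D3:**
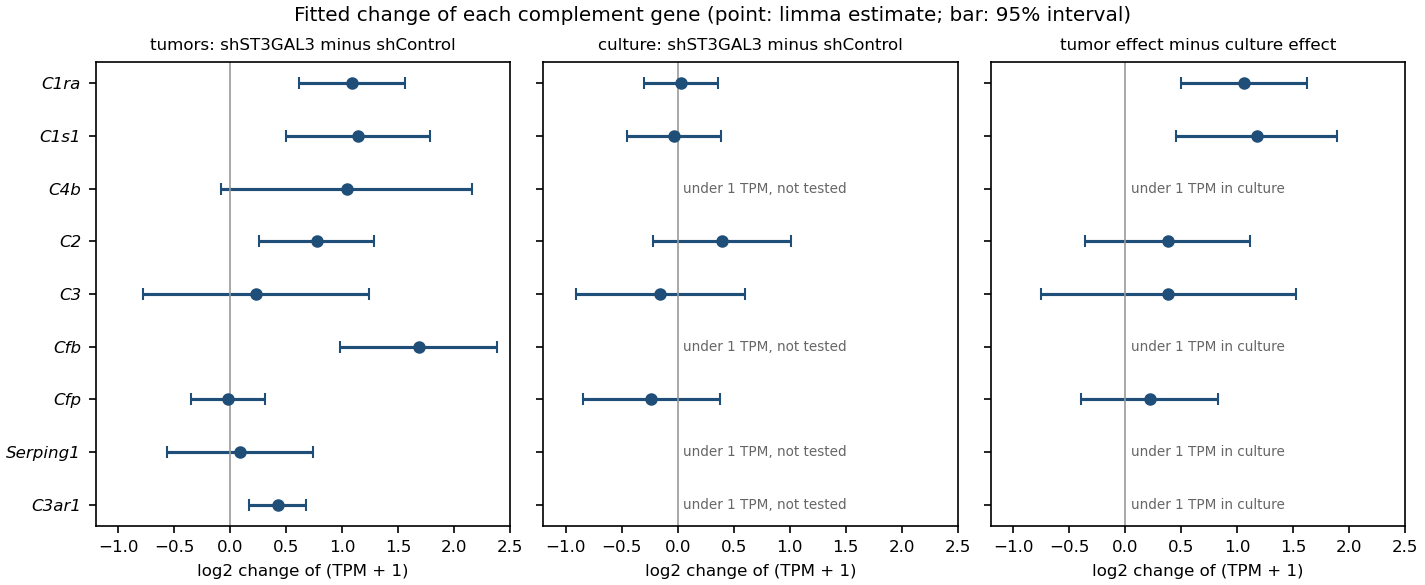
Fitted log2 change of (TPM + 1) for each complement gene, shST3GAL3 minus shControl, in tumors and in culture, and the tumor effect minus the culture effect for genes at 1 TPM or more in culture; points are limma estimates and bars 95% intervals. In tumors the intervals of C1ra, C1s1, C2, Cfb and C3ar1 lie above 0, and 0 of 9 genes pass after adjustment over all genes.

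Whether a complement gene passed in tumors depended on single libraries and on the scaling. With median-of-ratios scaling, C1ra (limma adjusted p = 0.0348) and Cfb (0.0394) passed, and quantile normalization, array weights or a stricter filter gave the same 2 genes. With all 4 groups in the fit, Cfb (limma adjusted p = 0.00220), C1ra (0.00676) and C1s1 (0.0196) passed. That fit pools the spread of tumors and cultures, so its p-values, here and below, do not measure the spread of tumors alone. Without shControl tumor 1, Cfb passed (limma adjusted p = 0.00591), and without shControl tumor 3, C1ra (0.00973) and C1s1 (0.0313) passed. Leaving out any of the other 4 tumors gave 0 calls.

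The order of the levels differed between tissues. In shST3GAL3 tumors the means ran Serping1 (100.6 TPM), C1s1 (70.8), Cfb (59.1), Cfp (49.9), C1ra (37.2), C3 (27.3), C2 (21.5), C3ar1 (10.1) and C4b (8.90). Neighbours in this order overlapped in range except Cfp with C1ra and C2 with C3ar1. In shControl tumors it ran Serping1 (95.2 TPM), Cfp (50.9), C1s1 (32.5), C3 (24.1), Cfb (18.6), C1ra (17.5), C2 (12.4), C3ar1 (7.30) and C4b (4.10). There, only Serping1 with Cfp and C2 with C3ar1 were separated. Cfb thus held the third place in shST3GAL3 tumors and the fifth in shControl tumors, among neighbours that it overlapped.

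In culture the order began with C1ra (17.0 TPM in shST3GAL3 cells and 16.7 TPM in shControl cells) and C1s1 (8.99 TPM in shST3GAL3 cells and 9.29 TPM in shControl cells), and every other gene of the 9 was at or below 2.64 TPM in each library. The tables of tumors and cells were normalized separately, so ratios across them are descriptive. C1ra was the gene with the least excess in tumors, 2.18 times the culture mean with shST3GAL3 and 1.05 times with shControl, where tumor and culture ranges overlapped. Serping1 stood at 888 times the culture mean with shST3GAL3 and 408 times with shControl, on culture levels near 0. No ratio is given for C4b with shControl, since it was listed at 0 in 2 of these 3 cultures.

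In shControl tumors, replicate 1 had the lowest level of all 9 genes and replicate 3 the highest of 8, all but Cfp. In shST3GAL3 tumors, replicate 3 had the highest level of 6 genes (C1ra, C1s1, C2, C3, Cfb and Serping1), and the lowest levels were divided between replicates 1 and 2. The summed level of the 9 genes was 348, 367 and 441 TPM in shST3GAL3 tumors, against 194, 257 and 338 TPM in shControl tumors. In culture these sums overlapped, at 33.1, 33.9 and 28.7 TPM in shST3GAL3 cells, against 27.2, 31.7 and 35.7 TPM in shControl cells.

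Interferon-response genes were also higher in shST3GAL3 tumors. Their summed level over 24 genes was 1999, 1840 and 1518 TPM in shST3GAL3 tumors, against 346, 666 and 694 TPM in shControl tumors. Of these genes, 11 of 24 rose by limma, beside 1.07% of all genes tested, with a median log2 change of 1.39. The summed level was lowest in shControl tumor 1, as were all 9 complement genes. Among shST3GAL3 tumors it was lowest in replicate 3, where C1ra, C1s1, C2, C3, Cfb and Serping1 were highest. It was highest there in replicate 1, where C3ar1, C4b and Cfp were highest. Ifng itself, the interferon-gamma transcript, was at 2.61, 2.33 and 1.53 TPM in shST3GAL3 tumors, against 0.330, 0.910 and 0.470 TPM in shControl tumors. In culture, 10 interferon-response genes were tested and 0 passed, beside 0.0296% of all genes tested there. The count was also 0 at an unadjusted p under 0.05, beside 3.42%. Ifng was listed at 0 in all 6 culture libraries. The part of this response in the complement levels was not tested.

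Markers of the cells that could supply complement were also summed. Some of these markers are also among the further complement genes counted below, so the sums are not independent of them. They are C1qa and Itgam in the monocyte and macrophage list, Itgax in the dendritic cell list and Cfd in the adipocyte list. C1qa alone was at 188 to 353 TPM in the tumors. Beside the counts that follow, 1.07% of all genes tested were called higher and 0.436% lower, and 18.7% had an unadjusted p under 0.05. The 12 T and natural killer cell markers ran from 162 to 219 TPM in shST3GAL3 tumors, against 64.2 to 89.6 TPM in shControl tumors, with 4 of 12 called higher and 10 higher at an unadjusted p under 0.05. The 14 monocyte and macrophage markers overlapped, at 1287 to 1602 TPM in shST3GAL3 tumors and 1297 to 1681 TPM in shControl tumors, with 1 of 14 called higher and 3 at an unadjusted p under 0.05. The 10 fibroblast markers were at 1040 to 1534 TPM in shST3GAL3 tumors and 1391 to 1861 TPM in shControl tumors, with 1 of 10 called lower and 5 lower at an unadjusted p under 0.05, and their sum was highest in replicate 3 of each group. Sums of endothelial, dendritic cell, neutrophil and adipocyte markers overlapped. Tested were 9 of 9 endothelial, 7 of 8 dendritic cell, 6 of 10 neutrophil and 2 of 6 adipocyte markers. Of these, 0 were called by limma and only 4 endothelial genes, all lower, had an unadjusted p under 0.05. In shST3GAL3 tumors the sums were 62.7 to 94.8 TPM for endothelial, 33.5 to 48.2 TPM for dendritic cell, 197 to 245 TPM for neutrophil and 8.38 to 32.0 TPM for adipocyte markers. In shControl tumors they were 87.3 to 125.4 TPM for endothelial, 28.5 to 45.8 TPM for dendritic cell, 136 to 354 TPM for neutrophil and 6.57 to 25.4 TPM for adipocyte markers. The summed level of the 10 epithelial and ovarian tumor markers was lower without overlap. It ran from 2560 to 2826 TPM in shST3GAL3 tumors, against 3227 to 3432 TPM in shControl tumors. Of the 10, 5 were tested by limma, with 0 called and 4 lower at an unadjusted p under 0.05 (Krt8, Krt18, Krt19 and Msln). Krt8, Krt18 and Krt19 made up almost all of the sum. Wt1, Krt7 and Pax8 had higher means in shST3GAL3 tumors, the last 2 below 1 TPM.

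Skeletal muscle markers stood apart in 2 libraries, with sums of 101.3, 15.7 and 78.6 TPM in shST3GAL3 tumors, against 3.49, 16.5 and 4.65 TPM in shControl tumors. Of the 12 markers 9 were tested, with 0 called by limma and 6 higher at an unadjusted p under 0.05, beside the 18.7% of all genes tested. Without shST3GAL3 tumors 1 and 3, the log2 changes were 1.54 for Cfb, 1.13 for C1ra and 1.21 for C1s1, against 1.68, 1.09 and 1.14 from all 6 tumors, with 0 of 9 complement genes called. C4b moved to 0.51, against 1.04 from all 6 tumors, and C3 to -0.06, against 0.23. The remaining shST3GAL3 tumor is then assumed to vary like the shControl tumors. Of the 10 hepatocyte markers, 5 were listed at 0 in all 6 tumors, Ttr and Fgb among them, and 2 reached the level for testing, Trf among them. Alb was at or below 0.020 TPM and Apoa1 at or below 0.280 TPM in the tumors. The sum of that list, 1450 to 1906 TPM in shST3GAL3 tumors and 1636 to 2276 TPM in shControl tumors, was almost wholly Trf, the transferrin gene, which was also at 425 to 729 TPM in cultured cells. The part of changed cell makeup in the complement levels was not tested.

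Genes with a pattern most like a member over the 6 tumors were found by the root mean square difference of centred log2(TPM + 1) among the 10671 genes that averaged 5 TPM or more there. For C1s1 the closest was Nos2, the inducible nitric oxide synthase (difference 0.063), and for C1ra they were C1s1 (0.112) and Nos2 (0.120). Nos2 was at 12.3, 14.8 and 16.7 TPM in shST3GAL3 tumors, against 3.87, 5.51 and 9.33 TPM in shControl tumors, and was listed at 0 in all 6 cultures. For Cfb the closest were Ms4a4b (0.087), a gene of T cells, at 13.7, 11.8 and 17.3 TPM in shST3GAL3 tumors, against 2.24, 4.47 and 5.84 TPM in shControl tumors, and the guanylate-binding protein gene Gbp9 (0.170). C4b was closest to the T-cell receptor gene Trbc2 (0.145) and to Klrk1 (0.212), and C2 to Xdh (0.105) and Gimap4 (0.121). Cfp was closest to the proliferation genes Foxm1 (0.0315) and Cdca2 (0.0316), both of which, like Cfp, differed little between the groups. Serping1 was closest to Slc7a2 (0.111) and Emilin1 (0.113), C3 to Gm3764 (0.063) and Gm23547 (0.172), and C3ar1 to Nod1 (0.0397) and Gpr35 (0.0421). Small differences are easier to reach for genes that vary little, so these distances rank genes within a member and not between members.

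Beyond the 9 genes, a list of 54 further complement genes was counted. In tumors 25 of 54 were tested, 2 rose, 0 fell, and 8 of the 54 were listed at 0 in all 6 tumors. The share of calls over all genes tested was 1.07% upward and 0.436% downward, and the median log2 change of the list was 0.16, against -0.05 over all genes tested. At an unadjusted p under 0.05 there were 3 genes in each direction, beside 18.7% of all genes tested, in both directions together. Clu passed as lower under 5 other settings of the fit and when certain tumors were left out, as given with its levels. The genes that rose, C1s2 and C1rl, both lie in the C1r and C1s cluster on chromosome 6.

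C1s2 (ENSMUSG00000079343), the copy of C1s1, was at 4.30, 5.58 and 5.43 TPM in shST3GAL3 tumors, against 1.33, 1.57 and 2.01 TPM in shControl tumors, without overlap (log2 change 1.21, SE 0.152, limma adjusted p = 0.0165). The call was lost without shST3GAL3 tumor 1 (adjusted p = 0.0517), shST3GAL3 tumor 2 (0.0736) or shControl tumor 2 (0.0572), and without shST3GAL3 tumors 1 and 3 together (0.162), by limma in each case. C1s1 stood at 13.3, 13.2 and 15.01 times C1s2 in shST3GAL3 tumors, against 17.6, 18.3 and 22.5 times in shControl tumors, lower in every shST3GAL3 tumor; whether reads were exchanged between these copies was not tested. In culture C1s2 was at 0.450, 0.700 and 0.840 TPM in shST3GAL3 cells, against 0.750, 0.770 and 0.740 TPM in shControl cells.

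C1rl (ENSMUSG00000038527) encodes a C1r-like protease and shares no 50-base window with C1ra. It was at 4.61, 5.09 and 4.70 TPM in shST3GAL3 tumors, against 1.82, 2.29 and 2.59 TPM in shControl tumors, again without overlap (log2 change 0.85, SE 0.131, limma adjusted p = 0.0324). Leaving out any 1 of the 6 tumors ended this call, with limma adjusted p-values from 0.0501 to 0.132, and without shST3GAL3 tumors 1 and 3 together it was 0.247. In culture it was at 2.72, 2.60 and 1.67 TPM in shST3GAL3 cells, against 1.89, 1.85 and 2.33 TPM in shControl cells, with overlap.

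C1q, the recognition part of the C1 complex, did not separate the groups. C1qa was at 353, 253 and 298 TPM in shST3GAL3 tumors, against 188, 325 and 299 TPM in shControl tumors (limma adjusted p = 0.715). C1qb and C1qc, the other chains, had fitted differences of 0.23 and 0.28 on the log2 scale (adjusted p = 0.632 and 0.549 by limma), and all 3 were at or below 0.130 TPM in culture. C1ra amounted to 3.86, 6.06 and 5.16% of the summed C1q chains in shST3GAL3 tumors, against 2.87, 1.96 and 3.27% in shControl tumors, a description chosen after seeing the values. Fcna, the ficolin A of the lectin pathway, was at 40.2, 30.9 and 28.7 TPM in shST3GAL3 tumors, against 54.9, 36.4 and 46.8 TPM in shControl tumors, with overlap (log2 change -0.45, limma adjusted p = 0.244).

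Clu, which encodes clusterin, a fluid-phase inhibitor of the terminal complex, had the lowest fitted change of the list. It was at 40.1, 50.4 and 78.2 TPM in shST3GAL3 tumors, against 135.2, 156.5 and 141.8 TPM in shControl tumors. No library overlapped, as in 14.9% of all genes tested in this direction, and the log2 change of -1.40 (SE 0.240) had a limma adjusted p of 0.0612. Clu passed as lower with the stricter filter (limma adjusted p = 0.0478), array weights (0.0201), median-of-ratios scaling (0.0360), quantile normalization (0.0456) and all 4 groups in 1 fit (0.00162), and without shST3GAL3 tumor 3 (0.00968) or without shST3GAL3 tumors 1 and 3 (0.0167). In culture it was at 75.5, 73.7 and 77.5 TPM in shST3GAL3 cells, against 81.6, 87.0 and 81.8 TPM in shControl cells, lower in every library, as were 2.45% of genes tested in culture, with a log2 change of only -0.14 (limma adjusted p = 1.00). The difference between the tumor and culture effects was -1.26 (SE 0.253, limma adjusted p = 0.0528), which also passed under some of these settings, with the stricter filter (0.0387), array weights (0.0154), median-of-ratios scaling (0.0463) and quantile normalization (0.0395), and without shST3GAL3 tumor 3 (0.00208) or without shST3GAL3 tumors 1 and 3 (0.000643).

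Membrane regulators and receptors gave 0 calls by limma among 10 genes tested, beside 1.51% of all genes tested. At an unadjusted p under 0.05 there was 1 gene in each direction, beside 18.7% of all genes in both directions together. Cr1l, which encodes the mouse membrane regulator Crry, was at 42.2, 43.8 and 46.3 TPM in shST3GAL3 tumors, against 40.5, 36.6 and 40.5 TPM in shControl tumors, apart by a small margin (log2 change 0.16, limma adjusted p = 0.285). Cd55 and Cd59a, regulators of the convertases and of the terminal complex, averaged 2.47 ± 0.127 and 4.25 ± 1.22 TPM in shST3GAL3 tumors, against 1.84 ± 0.943 and 3.39 ± 0.437 TPM in shControl tumors (SD, n = 3 each), both with overlap. The integrin chain Itgb2, shared by complement receptors of the integrin type, was at 71.8, 63.2 and 74.3 TPM in shST3GAL3 tumors, against 44.5, 61.1 and 57.6 TPM in shControl tumors, without overlap (log2 change 0.36, limma adjusted p = 0.201). Its partners Itgam and Itgax overlapped, with log2 changes of 0.04 and 0.12. C1qbp, a C1q-binding protein, was at 131.6, 142.6 and 130.1 TPM in shST3GAL3 tumors, against 143.4, 140.1 and 127.8 TPM in shControl tumors.

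The terminal pathway was represented by C6 and C8g, at 4.43, 1.97 and 3.32 TPM and at 1.17, 0.920 and 0.930 TPM in shST3GAL3 tumors, against 0.970, 3.22 and 3.46 TPM and 0.460, 0.560 and 1.03 TPM in shControl tumors. Both overlapped and 0 passed. Cfd, factor D of the alternative pathway and an adipocyte marker, varied most between libraries, at 10.6, 0.920 and 3.94 TPM in shST3GAL3 tumors, against a listed 0, 1.03 and 9.23 TPM in shControl tumors. In cultured cells, 10 of the 54 further genes were tested, with 0 calls by limma, beside 0.0296% of all genes tested there. At an unadjusted p under 0.05 the count was also 0, beside 3.42%.

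**Figure D4:**
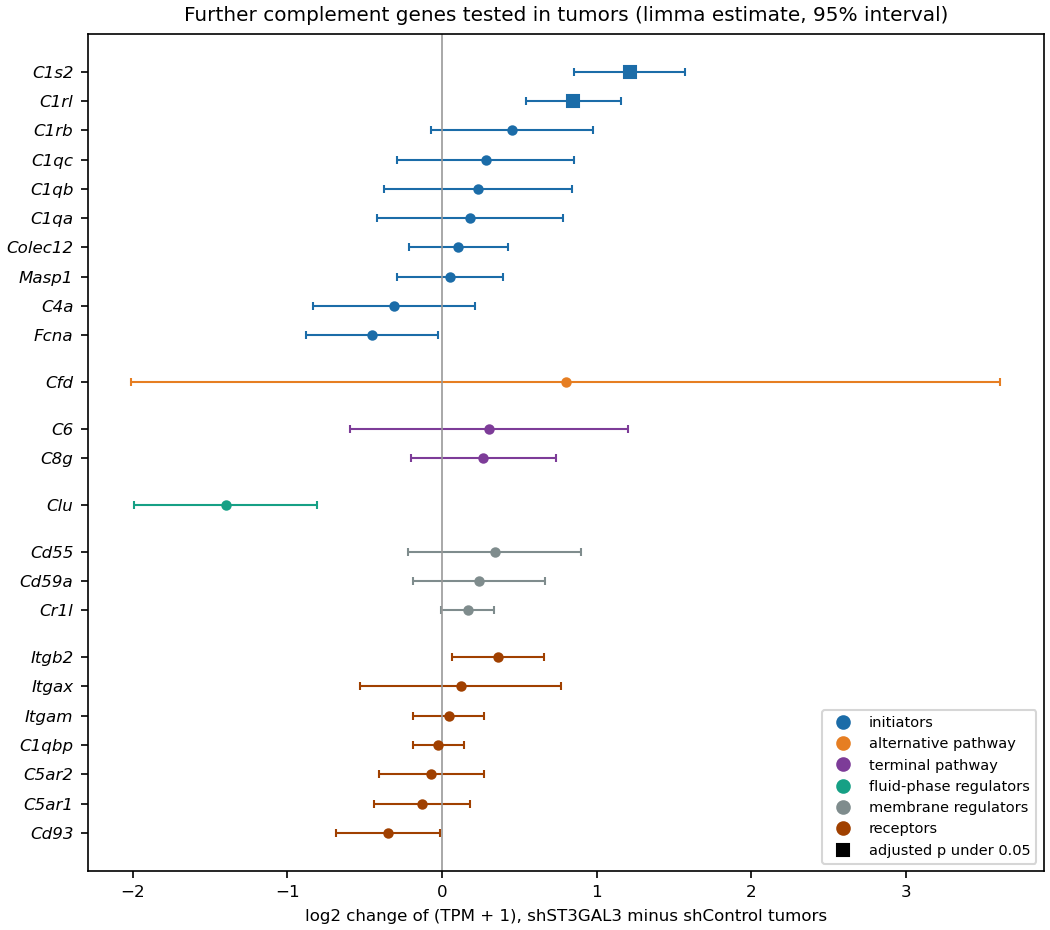
Fitted log2 change of (TPM + 1), shST3GAL3 minus shControl tumors, for 24 of the 25 further complement genes tested, coloured by role; points are limma estimates, bars 95% intervals and squares the genes with an adjusted p under 0.05. C1s2 (1.21) and C1rl (0.85) are marked as passing, and Clu (-1.40) lies lowest.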

How the data were processed

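RNA sequencing of 12 libraries of HM1 cells and tumors was analysed, in 4 groups of 3 taken from the sample titles. The authors deposited 1 table per library with gene identifiers, names and TPM, per the file headers. Per the submitters' processing notes, the build was GRCm39 and the tools fastp, HISAT and RSEM, whose versions are not named. RSEM divides reads between similar transcripts, so levels of gene copies are uncertain, and whether strand was used in counting was not stated. Library depth cannot be had from TPM and is unknown, so counting intervals were not computed. Between 14046 and 14534 genes reached 1 TPM in a tumor library, and between 12629 and 13145 in a culture library. No 2 libraries were identical.

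The members and lists were chosen with earlier results of these data known. limma 3.58.1 in R 4.3.3, with trended and robust empirical Bayes, was fitted to log2(TPM + 1) for every gene whose mean reached 1 TPM in any group, and p-values were two-sided and adjusted (Benjamini-Hochberg) over all genes tested. Changes on this scale understate those of low genes. Tumors and cells were fitted separately, and the difference of effects on all 12 libraries over the 55416 identifiers shared by both tables. Of that difference, values are given only for genes at a mean of 1 TPM or more in both tissues, a limit chosen with the values known. The exceptions are C4b and C3ar1, given only where the direction of a change turned with the pseudocount. The procedure was tested on simulated data. Named were St3gal3, the 9 members, further complement genes that were called, otherwise up to 4 per role with the highest tumor TPM, the 2 genes most like each member, and markers beside a result. Values of 2 of the genes so named are not reported here. C1rb, C4a and Cfd were added after their values were seen. Promoters came from RefSeq (GRCm38.p6), and copies were compared in GENCODE vM21 transcripts. Alternatives were a pseudocount of 0.1 TPM, no filter, at least 1 TPM in 3 libraries, a replicate block, quantile normalization, median-of-ratios scaling, array weights, all 4 groups in 1 fit, leaving out each library, and leaving out shST3GAL3 tumors 1 and 3. Figures used matplotlib 3.10.9 and Python 3.11.15.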

Additional observations from a re-analysis of the deposited data

Results flagged for a closer look

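The effect of the knockdown differed between tumors and culture, by the test of the difference itself, for 1 of the genes reported and tested in both tissues, St3gal3, the gene targeted. The difference was 1.19 on the log2 scale (SE 0.192, limma adjusted p = 0.0164), its log2 change being -1.13 in tumors and -2.32 in culture. The difference no longer passed with the replicate block (limma adjusted p = 0.151), without shST3GAL3 tumors 1 and 3 (0.0980), with quantile normalization (0.0612) or without shControl culture 2 (0.0530).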

How the results depend on the processing

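The count of complement members called in tumors, 0 as reported, was 2 with the stricter filter, with median-of-ratios scaling, with quantile normalization and with array weights, and 3 with all 4 groups in 1 fit. It ranged from 0 to 2 over single libraries left out, and remained 0 with a pseudocount of 0.1 TPM, no filter, the replicate block or without shST3GAL3 tumors 1 and 3. For the difference of effects the count, 0 as reported, was 3 with median-of-ratios scaling and 2 with quantile normalization, and ranged from 0 to 3 over single libraries left out; these calls include Cfb, which is under 1 TPM in culture. In culture it was 0 under every alternative run. Of the further complement genes, 2 were called in tumors, both higher, against 1 with no filter, 0 with the replicate block, 3 with the stricter filter, array weights, quantile normalization, median-of-ratios scaling or all 4 groups in 1 fit (2 higher and Clu lower in each), 1 without shST3GAL3 tumors 1 and 3 (Clu, lower), and 0 to 2 over single libraries left out. For the difference, 1 was called (C1s2, which is under 1 TPM in culture and is not reported above for that reason), against 0 with a pseudocount of 0.1 TPM or the replicate block, 2 with the stricter filter, median-of-ratios scaling, array weights or without shST3GAL3 tumors 1 and 3, 4 with quantile normalization, and 1 to 2 over single libraries left out.

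Some changes turned direction. In tumors, C3 was -0.083 with array weights, -0.061 without shST3GAL3 tumors 1 and 3, and -0.14 to 0.52 over single libraries left out. Cfp was 0.048 with median-of-ratios scaling, 0.0054 with quantile normalization and -0.15 to 0.092 over single libraries. Serping1 was -0.077 with array weights and -0.078 to 0.32 over single libraries. In culture, C1ra was -0.0034 with median-of-ratios scaling and -0.068 to 0.14 over single libraries, C1s1 was 0.0064 with array weights and -0.16 to 0.12 over single libraries, and C3 was -0.35 to 0.15 over single libraries. For the difference, C4b was -0.027 with a pseudocount of 0.1 TPM, against 0.81 with 1 TPM, and C3ar1 -0.049, against 0.24. Both genes are under 1 TPM in culture and entered that fit through the tumors alone. Their values are given only to show this dependence on the pseudocount, and do not measure a difference between tissues. The causes were not tested.

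Same-numbered libraries did not deviate together (correlations of deviations -0.144, -0.017 and 0.049 in tumors, -0.060, -0.065 and -0.155 in culture). Differently numbered libraries had correlations from -0.142 to 0.149 in tumors and from -0.093 to 0.151 in culture. With 3 libraries a group, these values cannot tell whether the replicate numbers pair libraries. With the replicate block, 2 of all genes were called in tumors, against 225 without it. Over the other settings that count ran up to 795, with array weights, and down to 38 without shST3GAL3 tumor 1. With 3 libraries a group and no known depth, members below 1 TPM in culture could not be compared.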
